A study of Mus musculus with 20 samples.

Results

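The 40 genes described here encode the digestive enzymes of the lysosome, the lumenal proteins that assist them and proteins of the lysosomal membrane. They are the rows of the deposited gene table whose Ensembl identifier carries a listed symbol in the GENCODE M21 annotation, and all 40 were found among 32400 Ensembl genes. By the role of the product they fall into 9 proteases, 11 glycosidases, 4 sulfatases, 7 lipid hydrolases and lipid-handling lumenal proteins, and 9 membrane proteins.

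Liver mRNA was sequenced in 20 libraries from mice of the substrain C57BL/6NTac. Mice of the chow control group (n = 5) got no treatment and ate standard chow. The HFHF control group (n = 7) ate a high-fat, high-fructose diet and received PBS, the vehicle. The gRNA group (n = 8) ate the same diet and received a guide RNA to Flcn, the folliculin gene, packaged in AAV8, an adeno-associated virus used to deliver genes to liver. The nuclease, the position of the guide in Flcn, and the age of the mice were not given in the sources used here. Diet and vehicle injection cannot be told apart in HFHF control against chow control, nor guide and virus in gRNA against HFHF control. Nothing in the labels ties each library to an animal of its own, so p-values measure the spread between these libraries, which may be technical.

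Lysosomes digest proteins, sugars and lipids that arrive by endocytosis and autophagy. Their soluble hydrolases are made in the endoplasmic reticulum and sorted to the lysosome, mostly by mannose 6-phosphate receptors, while membrane proteins hold the acid lumen together and carry its products out. Many of these genes are bound by the MiT/TFE transcription factors (TFEB, TFE3, MITF and TFEC) at a promoter element with the core CACGTG, and folliculin, through the Rag GTPases and mTORC1, keeps TFEB and TFE3 phosphorylated and out of the nucleus when nutrients are ample.

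Total estimated counts per library were 14131976 to 16285324 in chow control, 15244760 to 18194089 in HFHF control and 13974379 to 19586576 in the gRNA group. Levels are given as CPM, counts scaled by the library size with TMM factors. Flcn itself was at 17.3 to 32.4 CPM in chow control, 17.8 to 26.4 in HFHF control and 14.1 to 22 in the gRNA group. Its groups overlapped and it was not called between the gRNA group and HFHF control (log2 fold change -0.22, SE 0.12, edgeR adjusted p = 0.14), so the mRNA level is no check of the guide labels. All 12 hepatocyte markers looked at were detected in every library. The title of gRNA replicate 8 carries another number than all other titles, and counts of members without that library are given where they differ.

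Every one of the 40 members passed the filter on low counts, with 22 counts at the lowest (Cd63) and 19262 at the highest (Lamp1) in any library. A member was called at an adjusted p-value under 0.05 from edgeR's quasi-likelihood test, adjusted over all 13667 genes tested. In the gRNA group against HFHF control 22 members rose, 2 fell (Lgmn and Psap) and 16 were not called, against a background of 38.6% of all tested genes called, 19.6% higher and 19% lower. Their median log2 fold change was 0.23, with 0.01 over all genes tested. In 12 members the gRNA libraries all exceeded the HFHF control libraries, as in 5.04% of all tested genes, and in 0 members did they all lie below (6.01% of all genes). Without gRNA replicate 8 the counts were 22 higher and 1 lower. In bulk liver, a change in the number of cells of one type and a change of RNA per cell cannot be told apart, and this holds for every value below.

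In HFHF control against chow control, 19 members rose, 7 fell and 14 were not called, against 57% of all tested genes called (28.1% higher, 28.9% lower). The median was 0.20 for the members and -0.01 for all genes. Every HFHF control library lay above every chow library in 17 members (18.8% of all genes) and below in 5 (18.1%). In the gRNA group against chow control 28 members rose, 2 fell (Scarb2 and Ids) and 10 were not called, against 42.6% of all tested genes (20.9% higher, 21.7% lower), with medians of 0.54 for the members and 0.00 for all genes. All gRNA libraries were above all chow libraries in 22 members (9.01% of all genes) and below in 0 (8.98%). Without gRNA replicate 8 the counts were 28 higher and 1 lower. The 3 comparisons share libraries, so their values stand side by side and do not support each other.

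How libraries are scaled decided the direction of members with small changes. Of all genes called between the gRNA group and HFHF control, 50.7% were higher with TMM factors, 37.8% with upper-quartile factors and 16.6% with no factors. For the diet comparison these shares were 49.4%, 60.7% and 80.4%, and for gRNA against chow control 49.1%, 55.6% and 66.6%. With no factors the median of all genes moved to -0.175 (gRNA against HFHF control) and 0.266 (HFHF control against chow control). Relative to that shifted median the members' median was 0.228 and 0.213, and it was 0.224 and 0.211 with TMM factors. Of the 22 members called higher with the gRNA, Lamp1, Ctsb, Ctsf, Gaa, Naglu, Arsb, Smpd1 and Scarb2 did not pass with no factors, and Naglu, Arsb and Scarb2 did not pass with upper-quartile factors. Npc2, Glb1, Gusb, Ppt1, Lipa and Idua, not called with TMM factors, passed as lower with no factors. In the diet comparison Ctsa, Ctsl, Clcn7, Ostm1, Gla, Sgsh, Asah1, Man2b1 and Idua, not called with TMM factors, passed as higher with no factors. Naglu and Smpd1, below 0 and not called with TMM factors, also passed as higher (0.234 and 0.235, edgeR adjusted p = 0.0246 and 0.0169). Whether the levels of 2 groups overlapped was read with TMM factors only. Some gaps were small: for Ctsl the lowest gRNA library had 605 CPM and the highest HFHF control library 600.

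**Figure D1:**
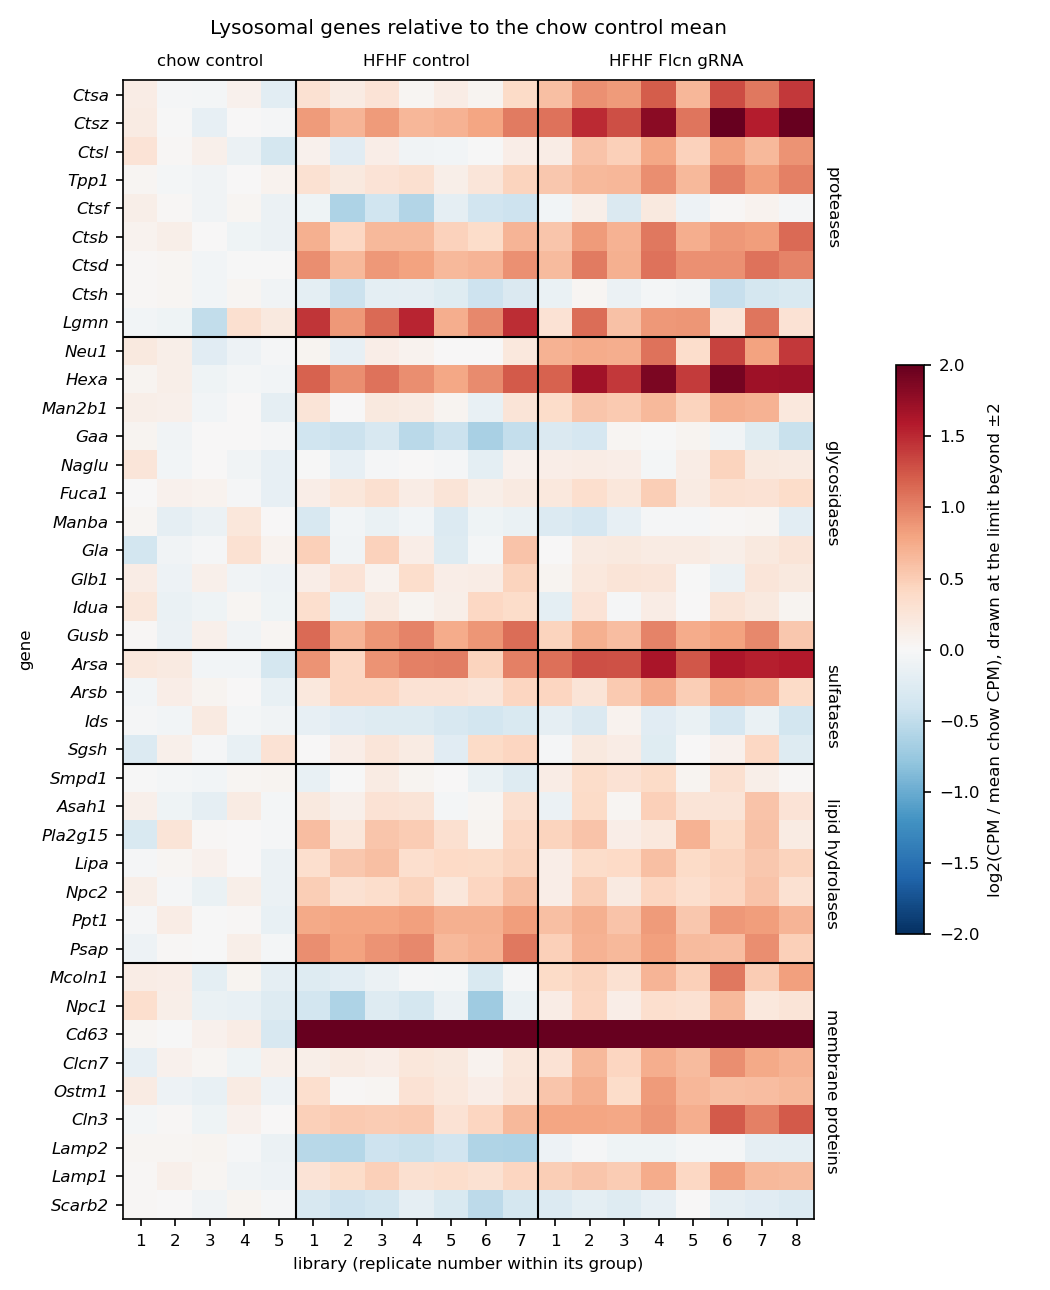
Level of each of the 40 genes (rows, by class) in each of the 20 libraries (columns, replicate number within group) as log2 of CPM over the mean CPM of chow control; red is above and blue below, with colours at their limit beyond 2. Ctsa, Ctsz, Neu1, Hexa and Arsa are darkest in the gRNA libraries, Lgmn and Psap in the HFHF control libraries, and Cd63 is at the limit of the scale in all libraries on the HFHF diet.

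**Figure D2:**
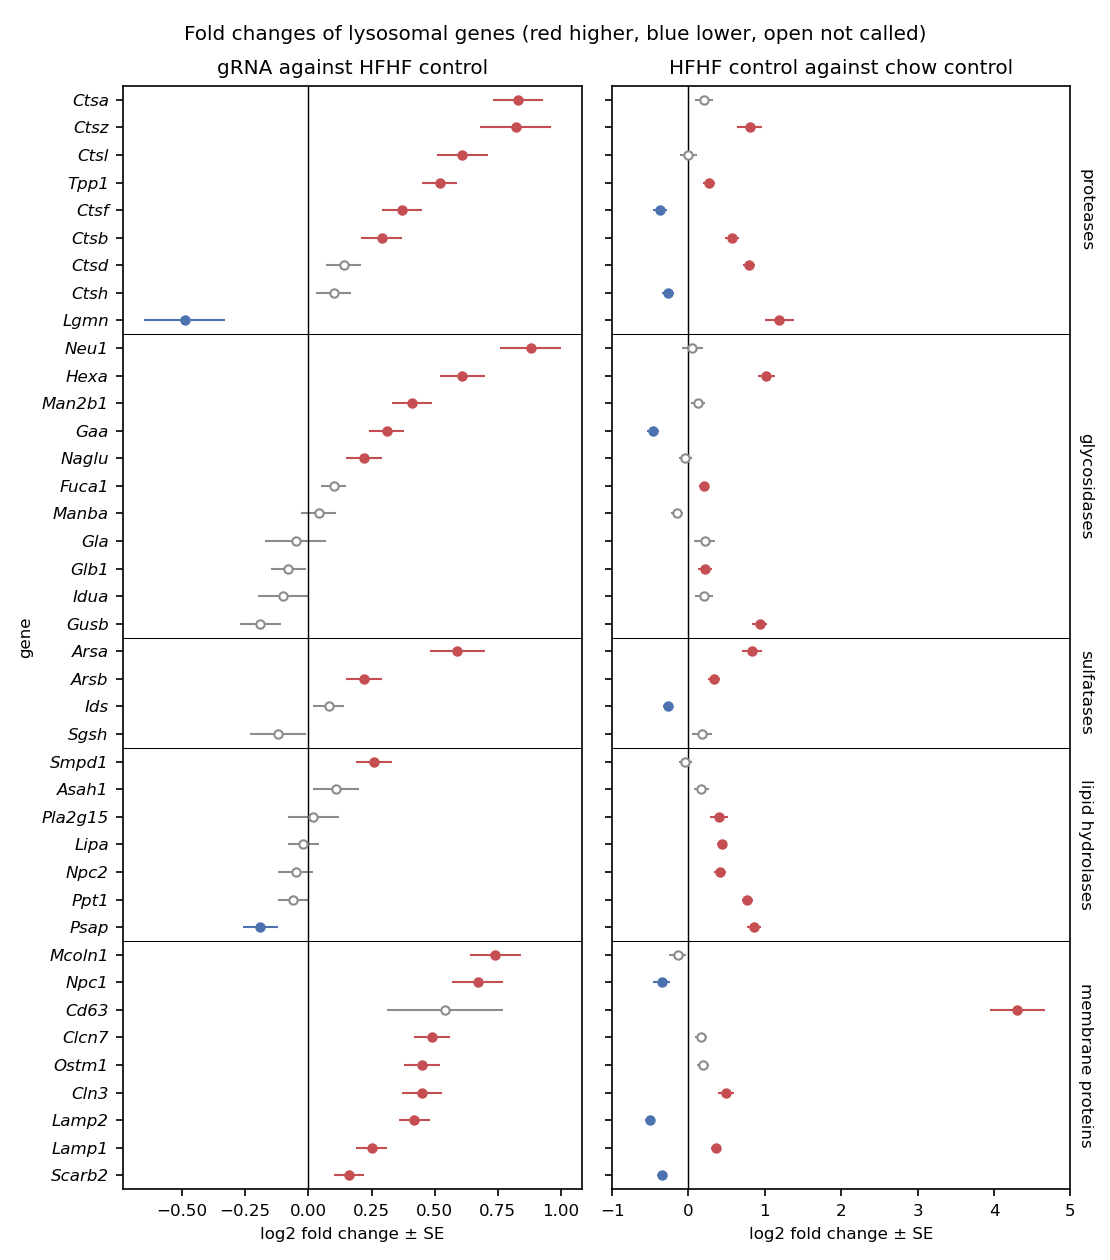
Log2 fold change with its SE (x axis, a different range in each panel) of each gene (y axis, by class) in the gRNA group against HFHF control (left) and in HFHF control against chow control (right), from edgeR; red is called higher, blue called lower, open not called. On the left 8 of 9 membrane proteins but 1 of 7 lipid hydrolases and lipid-handling proteins are called higher, and on the right 5 of these 7 are. Over all tested genes 19.6% are called higher on the left and 28.1% on the right.

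Promoter windows from RefSeq (GRCm38.p6, from 250 bases before to 50 after the annotated start) were available for 36 of the 40 members, and 5 of these had 2 windows. The letters CACGTG, searched on both strands, occurred in 15 of these 36 genes (41.7%), compared with 8.09% of all 27025 genes with a window and 11.52% of the 10480 tested genes with one. The longer palindrome TCACGTGA, which contains CACGTG, was present in 6 members (16.7%; Clcn7, Cln3, Ctsa, Ctsd, Gla and Mcoln1), against 1.12% of all genes and 2.14% of tested genes. Of the 15 members with CACGTG 10 rose, 1 fell and 4 were not called in the gRNA group against HFHF control (median 0.31), and of the 21 without it 10 rose, 1 fell and 10 were not called (median 0.16). Of the 6 with TCACGTGA, 4 rose and 2 were not called (Ctsd and Gla), with a median of 0.47. Over all tested genes 19.6% rose and 19% fell in this comparison. The shares among all tested genes with either motif were not computed, so a link of motif and call was not tested. A match describes letters in a window and is not evidence of binding.

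The stretches from 170 bases before to 20 after the start are given for the 4 members of smallest p in the gRNA comparison that hold TCACGTGA, and for Lamp2 and Tpp1, which were also above HFHF control in all gRNA libraries and hold no CACGTG. Capitals mark CACGTG, and each sequence runs 5′ to 3′ on the gene's own strand. Ctsa, Clcn7 and Cln3 each have 2 RefSeq windows, and the one printed is the one with TCACGTGA; the other holds no CACGTG. The start used for Ctsa, Cln3 and Mcoln1 is an internal RefSeq start, downstream of the 5′ end of the annotated gene.
Ctsa, chr2:164833603-164833792, plus strand: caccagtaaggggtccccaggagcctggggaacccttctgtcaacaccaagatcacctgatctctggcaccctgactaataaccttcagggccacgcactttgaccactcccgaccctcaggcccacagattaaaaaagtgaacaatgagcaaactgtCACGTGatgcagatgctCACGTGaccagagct
Mcoln1, chr8:3500349-3500538, plus strand: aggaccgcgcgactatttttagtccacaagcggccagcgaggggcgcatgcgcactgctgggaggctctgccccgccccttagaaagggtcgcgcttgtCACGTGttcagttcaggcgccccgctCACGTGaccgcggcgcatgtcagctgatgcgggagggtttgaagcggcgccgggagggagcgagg
Clcn7, chr17:25133221-25133410, plus strand: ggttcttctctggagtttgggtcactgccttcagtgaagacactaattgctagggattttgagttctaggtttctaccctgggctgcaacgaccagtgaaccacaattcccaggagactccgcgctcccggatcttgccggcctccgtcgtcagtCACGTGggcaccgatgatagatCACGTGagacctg
Cln3, chr7:126583217-126583406, minus strand: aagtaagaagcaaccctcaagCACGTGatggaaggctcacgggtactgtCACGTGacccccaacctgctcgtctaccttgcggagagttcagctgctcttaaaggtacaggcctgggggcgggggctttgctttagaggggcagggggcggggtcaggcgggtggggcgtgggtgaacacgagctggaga
Lamp2, chrX:38456441-38456630, minus strand: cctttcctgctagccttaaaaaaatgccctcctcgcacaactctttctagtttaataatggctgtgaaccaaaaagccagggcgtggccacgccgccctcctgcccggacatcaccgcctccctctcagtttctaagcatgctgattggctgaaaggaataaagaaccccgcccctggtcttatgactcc
Tpp1, chr7:105752216-105752405, minus strand: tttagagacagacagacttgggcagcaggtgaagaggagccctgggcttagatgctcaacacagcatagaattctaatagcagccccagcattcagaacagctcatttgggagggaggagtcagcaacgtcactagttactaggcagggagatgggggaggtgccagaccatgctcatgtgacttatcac

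The first base of CACGTG lay at -12 and 6 from the start in Ctsa, -71 and -45 in Mcoln1, -15 and 8 in Clcn7, and -149 and -121 in Cln3. Of the remaining members Lamp1 held the letters at -61, -45, -28 and -15, all in the short form only.

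Among the proteases 6 of 9 rose in the gRNA group against HFHF control, Lgmn fell, and Ctsd and Ctsh were not called (median 0.37). In this comparison 19.6% of all tested genes rose and 19% fell. The summed level of the 9 genes was 1770 ± 126 CPM in chow control (SD, n = 5), 2270 ± 186 in HFHF control (n = 7) and 3020 ± 415 in the gRNA group (n = 8). Ctsa (chr2:164832873-164841032 on GRCm38, plus strand) encodes cathepsin A, a serine carboxypeptidase that also protects neuraminidase 1 and beta-galactosidase from breakdown. Its chow control libraries had 116, 103, 102, 111 and 90.7 CPM, its HFHF control libraries 108 to 137 (median 117) and its gRNA libraries 159 to 278 (median 208). Every gRNA library was above every library of both control groups, and the 2 control groups overlapped. The log2 fold change of Ctsa was 0.83 (SE 0.10, edgeR adjusted p = 2.18e-06) in the gRNA group against HFHF control and 0.20 (SE 0.12, adjusted p = 0.15) in HFHF control against chow control. The exons of Ctsa share 10.5% of their length with Pltp on the opposite strand, which had 10437 counts over all libraries against 50478.1 for Ctsa.

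Tpp1 encodes tripeptidyl peptidase 1, which removes tripeptides from the amino end of proteins and is lost in one form of neuronal ceroid lipofuscinosis, a childhood storage disease. It had 77.4, 73.3, 71.2, 75.3 and 78.6 CPM in chow control, 81.4 to 102 (median 91.1) in HFHF control and 109 to 153 (median 127) in the gRNA group. The 3 groups did not overlap: Tpp1 rose by 0.27 (SE 0.08, edgeR adjusted p = 0.0063) with the diet and by a further 0.52 (SE 0.07, adjusted p = 6.39e-06) with the gRNA. Ctsz, which encodes the carboxypeptidase cathepsin Z, showed the same order with wider spread. It had 119, 105, 94.6, 107 and 105 CPM in chow control, 169 to 219 (median 184) in HFHF control and 223 to 500 (median 307) in the gRNA group. Its log2 fold changes were 0.80 (SE 0.16, edgeR adjusted p = 0.000255) with the diet and 0.82 (SE 0.14, adjusted p = 0.000102) with the gRNA, again with no overlap between neighbouring groups.

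Ctsl encodes cathepsin L, a cysteine endopeptidase and one of the main protein-degrading enzymes of the organelle. In chow control it had 659, 550, 582, 504 and 426 CPM, in HFHF control 468 to 600 (median 543) and in the gRNA group 605 to 1020 (median 833). The 2 control groups overlapped over most of their range (0.00, SE 0.11, edgeR adjusted p = 0.984), while the gRNA libraries were all above HFHF control (0.61, SE 0.10, adjusted p = 6.01e-05). Ctsb, the gene of cathepsin B, another cysteine protease, rose in both comparisons. It had 483, 500, 462, 434 and 425 CPM in chow control, 594 to 758 (median 720) in HFHF control and 679 to 1010 (median 828) in the gRNA group. The diet rise of Ctsb (0.57, SE 0.09, edgeR adjusted p = 2.3e-05) separated the groups, and the gRNA rise (0.29, SE 0.08, adjusted p = 0.00807) did not. Ctsb shares 12.8% of its exon length with Fdft1 on the opposite strand, which had 18849 counts over all libraries against 227943 for Ctsb. Ctsd, the gene of the aspartic protease cathepsin D, had 232, 236, 219, 228 and 228 CPM in chow control, 358 to 436 (median 398) in HFHF control and 356 to 488 (median 443) in the gRNA group. It rose with the diet (0.79, SE 0.08, edgeR adjusted p = 5.37e-08) and was not called with the gRNA (0.14, SE 0.07, adjusted p = 0.118). Its gRNA value turned to -0.042 without scaling factors. Exons of Ctsd share 34.4% of their length with Gm49369 on the same strand. Over all libraries Gm49369 had 14.7 counts and Ctsd 123593.1.

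Lgmn encodes legumain, the asparaginyl endopeptidase that matures several cathepsins, and it moved the other way with the gRNA. Its chow control libraries had 34.3, 33.6, 25.3, 44.3 and 40.6 CPM, its HFHF control libraries 59.1 to 103 (median 77.9) and its gRNA libraries 42 to 76.9 (median 59.3). The gRNA libraries overlapped both other groups, while HFHF control lay wholly above chow control (1.19, SE 0.19, edgeR adjusted p = 3.14e-05). The fall of 0.49 with the gRNA (SE 0.16, edgeR adjusted p = 0.0233) was lost without HFHF control replicate 4 (adjusted p = 0.0532) or replicate 7 (adjusted p = 0.0535). The remaining proteases were lower in HFHF control than in chow control: Ctsf, the gene of cathepsin F, at -0.37 (SE 0.09, edgeR adjusted p = 0.0015) and Ctsh, the gene of the aminopeptidase cathepsin H, at -0.27 (SE 0.08, adjusted p = 0.00452). The diet value of Ctsf was -0.093 with no scaling factors (edgeR adjusted p = 0.418). That of Ctsh was 0.004 with no scaling factors and did not pass with upper-quartile factors (adjusted p = 0.0571). With the gRNA Ctsf rose by 0.37 (SE 0.08, edgeR adjusted p = 0.000974), from 13.8 ± 1.90 to 17.8 ± 1.79 CPM, and chow control was at 17.8 ± 1.12.

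Of the 11 glycosidases, which take terminal sugars off glycans and glycolipids, 5 rose with the gRNA and 6 were not called (median 0.10). Over all tested genes 19.6% rose and 19% fell. Neu1 (chr17:34931253-34935953, plus strand) encodes neuraminidase 1, which removes sialic acid. It had 32.7, 31.1, 24.4, 26.7 and 28 CPM in chow control, 25.4 to 33.2 (median 29.8) in HFHF control and 36.3 to 76 (median 49) in the gRNA group. All 8 gRNA libraries were above all 12 control libraries, and the gRNA rise of 0.88 (SE 0.12, edgeR adjusted p = 1.18e-05) was the highest among the 40 members in the TMM fit. The diet difference of Neu1 was 0.05 (SE 0.14, edgeR adjusted p = 0.776).

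Hexa encodes the alpha subunit of beta-hexosaminidase, the enzyme missing in Tay-Sachs disease. In chow control it had 31.6, 33.1, 29, 29.9 and 29.4 CPM, in HFHF control 52.2 to 71.7 (median 58.8) and in the gRNA group 69.1 to 116 (median 98.5). The diet groups did not overlap (1.02, SE 0.11, edgeR adjusted p = 9.71e-08), and with the gRNA Hexa rose again by 0.61 (SE 0.09, adjusted p = 2.37e-05), with the lowest gRNA library inside the HFHF control range. Man2b1, the gene of lysosomal alpha-mannosidase, had 94.6, 93.7, 84.8, 88.4 and 77.1 CPM in chow control, 79.2 to 105 (median 98.4) in HFHF control and 101 to 146 (median 128) in the gRNA group. It rose with the gRNA (0.41, SE 0.08, edgeR adjusted p = 0.000242), with only the lowest gRNA library inside the HFHF control range, and was not called with the diet (0.12, SE 0.09, adjusted p = 0.261). Gusb, the gene of beta-glucuronidase, which acts on glycosaminoglycans, showed the reverse. It had 22.1, 19.9, 23.2, 20.7 and 22.3 CPM in chow control, 34.8 to 47.5 (median 40) in HFHF control and 29.6 to 43.2 (median 35.9) in the gRNA group. HFHF control was wholly above chow control (0.93, SE 0.10, edgeR adjusted p = 5.31e-08), and the gRNA difference of -0.19 (SE 0.08, adjusted p = 0.0711) did not pass. That call was made in 6 of 22 alternatives, with adjusted p between 0.00315 and 0.0381.

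The other glycosidases moved less. Gaa, the acid alpha-glucosidase that breaks down glycogen, fell with the diet by 0.46 (SE 0.08, edgeR adjusted p = 3.33e-05) and rose with the gRNA by 0.31 (SE 0.07, adjusted p = 0.00121). The diet fall of Gaa did not pass with no scaling factors (-0.186, edgeR adjusted p = 0.0504). Its means were 53.8 ± 1.75, 39.1 ± 2.83 and 48.5 ± 6.18 CPM in chow control, HFHF control and the gRNA group. Naglu, the alpha-N-acetylglucosaminidase of heparan sulfate breakdown, rose by 0.22 with the gRNA (edgeR adjusted p = 0.0167). Fuca1, the alpha-fucosidase, rose by 0.20 with the diet (adjusted p = 0.00896), and Glb1, beta-galactosidase, by 0.22 (adjusted p = 0.0298), which was lost without HFHF control replicate 4 (adjusted p = 0.0555) or replicate 7 (adjusted p = 0.0677). Gla, Idua and Manba, the genes of alpha-galactosidase A, alpha-iduronidase and beta-mannosidase, passed in neither comparison, with gRNA values between -0.10 and 0.04. The exons of Idua share 3.4% of their length with Slc26a1 and 2.9% with Dgkq, both on the opposite strand. Over all libraries Slc26a1 had 45997 counts, Dgkq 6293 and Idua 1323. Strand use in counting was not stated, and reads from these shared stretches cannot be told apart.

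The 4 sulfatases remove sulfate from glycosaminoglycans and sulfolipids. Arsa, the gene of arylsulfatase A, which is deficient in metachromatic leukodystrophy, had 34.6, 34, 29, 29 and 23.6 CPM in chow control, 39.9 to 60.9 (median 56.1) in HFHF control and 64.7 to 93.1 (median 80.9) in the gRNA group. The groups formed 3 steps with no overlap, with a diet rise of 0.83 (SE 0.13, edgeR adjusted p = 1.14e-05) and a gRNA rise of 0.59 (SE 0.11, adjusted p = 0.00021). Arsb, arylsulfatase B, which acts on dermatan sulfate, had 35.4, 40.5, 38.6, 37.2 and 33.2 CPM in chow control, 43 to 49.7 (median 45.1) in HFHF control and 44.2 to 62.6 (median 52.7) in the gRNA group. Its diet rise (0.33, SE 0.08, edgeR adjusted p = 0.0016) separated the groups and its gRNA rise (0.22, SE 0.07, adjusted p = 0.0165) did not. The exons of Arsb overlap an opposite-strand noncoding RNA gene, Gm26527, over 32.3% of their length, and no counts were available for Gm26527. Arsa shares 18.8% of its exon length with C230037L18Rik on the opposite strand, which had 464 counts over all libraries against 19530 for Arsa. Ids, iduronate-2-sulfatase, fell with the diet by 0.27 (SE 0.07, edgeR adjusted p = 0.00272), a value of 0.009 with no scaling factors, and was not called with the gRNA (0.08). Sgsh, the heparan N-sulfatase, passed in neither comparison.

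The 7 lipid hydrolases and lipid-handling proteins were the class with the lowest median in the gRNA group against HFHF control (-0.02), where Smpd1 rose, Psap fell and 5 were not called. With the gRNA 19.6% of all tested genes rose and 19% fell, and with the diet 28.1% and 28.9%. With the diet 5 of the 7 lipid-class genes rose and none fell (median 0.41). Their summed level was 740 ± 27.8 CPM in chow control (SD, n = 5), 1140 ± 73.6 in HFHF control (n = 7) and 1070 ± 98.1 in the gRNA group (n = 8), so HFHF control and the gRNA group overlapped.

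Smpd1 encodes acid sphingomyelinase, the enzyme lost in Niemann-Pick disease types A and B. It had 33.3, 32.6, 32.2, 34.5 and 34.7 CPM in chow control, 28 to 37.4 (median 33.2) in HFHF control and 34 to 43.6 (median 39) in the gRNA group. The gRNA rise was 0.26 (SE 0.07, edgeR adjusted p = 0.00349) with overlapping groups, and the diet value was -0.04 (adjusted p = 0.673). Psap encodes prosaposin, the precursor of 4 saposins, small proteins that present sphingolipids to their hydrolases. Its chow control libraries had 304, 330, 325, 352 and 318 CPM, its HFHF control libraries 513 to 679 (median 607) and its gRNA libraries 454 to 618 (median 509). All libraries on the HFHF diet were above all chow libraries (0.86, SE 0.09, edgeR adjusted p = 3.31e-08 for HFHF control). The gRNA fall of 0.19 (SE 0.07, adjusted p = 0.0464) lay at the threshold: it was lost in 13 of 22 alternatives, 11 of which left out 1 library, with adjusted p up to 0.114 (without HFHF control replicate 7).

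Ppt1, palmitoyl-protein thioesterase 1, which takes fatty acids off proteins, had the smallest diet p of the class. In chow control it had 24, 26.9, 24.1, 24.7 and 22.1 CPM, in HFHF control 39.9 to 43.3 (median 42) and in the gRNA group 35.6 to 44.3 (median 39.6). Its diet rise was 0.77 (SE 0.07, edgeR adjusted p = 4.25e-09), and its gRNA difference was -0.06 (SE 0.06, adjusted p = 0.46). Ppt1 shares 3.5% of its exon length with Cap1 on the opposite strand, which had 26892 counts over all libraries against 12282 for Ppt1, and strand use in counting was not stated. Asah1, acid ceramidase, had 37.6, 33.2, 30.9, 39.4 and 34.2 CPM in chow control, 34.2 to 43.9 (median 40) in HFHF control and 32.5 to 52.2 (median 42.2) in the gRNA group. It passed neither with the diet (0.17, edgeR adjusted p = 0.139) nor with the gRNA (0.11, adjusted p = 0.327), and all 3 groups overlapped. Lipa, the acid lipase that frees cholesterol and fatty acids from lipoprotein lipids, rose with the diet from 268 ± 13.2 to 363 ± 25.7 CPM (0.44, edgeR adjusted p = 2.84e-05). Npc2, the lumenal cholesterol carrier, rose by 0.41 (adjusted p = 0.000134) and Pla2g15, the lysosomal phospholipase A2, by 0.40 (adjusted p = 0.00613). The gRNA values of Lipa, Npc2 and Pla2g15 were -0.02, -0.05 and 0.02, with edgeR adjusted p = 0.856, 0.634 and 0.917.

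Of the 9 membrane proteins 8 rose with the gRNA and Cd63 was not called, against 19.6% of all tested genes higher and 19% lower. The median of the 9 genes was 0.45. Their summed level was 1660 ± 77.0 CPM in chow control (SD, n = 5), 1590 ± 60.2 in HFHF control (n = 7) and 2010 ± 120 in the gRNA group (n = 8). The lowest gRNA library, at 1870, stood above the highest library of either control group, at 1740. With the diet 3 of the 9 rose, 3 fell and 3 were not called, against 28.1% of all tested genes higher and 28.9% lower.

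Mcoln1 (chr8:3500457-3515232, plus strand) encodes mucolipin 1, the channel that lets calcium out of lysosomes. It had 24.3, 23.8, 19, 22.7 and 19.2 CPM in chow control, 17.6 to 21.5 (median 20.2) in HFHF control and 26.9 to 45.1 (median 30.6) in the gRNA group. Every gRNA library was above all controls. The gRNA rise was 0.74 against HFHF control (SE 0.10, edgeR adjusted p = 3.56e-06) and 0.60 against chow control (SE 0.11, adjusted p = 0.000121). The diet difference was -0.14 (SE 0.11, edgeR adjusted p = 0.302), or 0.140 with no scaling factors. Clcn7 and Ostm1 encode the chloride-proton exchanger of the lysosomal membrane and its beta subunit, without which the exchanger is unstable. Clcn7 had 24.2, 28.7, 27.8, 25.5 and 28.9 CPM in chow control, 28.4 to 31.6 (median 30.4) in HFHF control and 32.9 to 51.7 (median 43.1) in the gRNA group, a gRNA rise of 0.49 (SE 0.07, edgeR adjusted p = 1.63e-05). Ostm1 rose by 0.45 (SE 0.07, adjusted p = 3.95e-05), and for both genes every gRNA library was above every HFHF control library. Their diet values, 0.16 and 0.19, did not pass with TMM factors (edgeR adjusted p = 0.104 and 0.0611). Ostm1 passed in 10 of 19 alternatives and Clcn7 in 3.

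Lamp2 (chrX:38401357-38456454, minus strand) and Lamp1 encode the 2 heavily glycosylated proteins that line the inner face of the membrane. Lamp2 had 728, 728, 734, 700 and 658 CPM in chow control, 461 to 542 (median 481) in HFHF control and 618 to 700 (median 669) in the gRNA group. HFHF control lay below both other groups without overlap: Lamp2 fell with the diet by 0.51 (SE 0.06, edgeR adjusted p = 4.02e-07) and rose with the gRNA by 0.42 (SE 0.06, adjusted p = 3.99e-06). Lamp1 had 570, 603, 574, 535 and 521 CPM in chow control, 675 to 777 (median 719) in HFHF control and 744 to 996 (median 847) in the gRNA group. It rose in each comparison, by 0.36 with the diet (SE 0.07, edgeR adjusted p = 0.000244) and 0.25 with the gRNA (SE 0.06, adjusted p = 0.00435), and only the diet groups did not overlap.

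Cln3, the gene of battenin, a membrane protein lost in juvenile Batten disease, had 6.62, 6.9, 6.43, 7.2 and 6.85 CPM in chow control, 8.27 to 10.7 (median 9.68) in HFHF control and 11.3 to 15.9 (median 12.1) in the gRNA group. The 3 groups did not overlap, with a diet rise of 0.49 (SE 0.10, edgeR adjusted p = 0.00021) and a gRNA rise of 0.45 (SE 0.08, adjusted p = 0.000159). Cln3 shares 7.6% of its exon length with Apobr on the opposite strand, which had 1124 counts over all libraries against 3394 for Cln3. Npc1 encodes the membrane protein that passes cholesterol out of the lysosome. Its means were 105 ± 18.0, 82.3 ± 12.5 and 131 ± 16.0 CPM in chow control, HFHF control and the gRNA group. The gRNA rise of 0.67 (SE 0.10, edgeR adjusted p = 2.03e-05) separated all gRNA libraries from HFHF control. The diet fall of 0.35 (SE 0.11, edgeR adjusted p = 0.011) was lost without chow control replicate 1 (adjusted p = 0.107), without replicate 2 (adjusted p = 0.0586), with upper-quartile factors (adjusted p = 0.0532) and with no scaling factors (-0.076, adjusted p = 0.574). Scarb2, the gene of LIMP-2, the receptor that carries glucocerebrosidase to the lysosome, fell with the diet by 0.35 (SE 0.06, edgeR adjusted p = 5.79e-05), or by 0.070 with no scaling factors (adjusted p = 0.4). It rose with the gRNA by 0.16 (SE 0.06, adjusted p = 0.028), a call that was lost in 7 of 22 alternatives and was -0.027 with no scaling factors; without gRNA replicate 5 the value was 0.118 (adjusted p = 0.0795).

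Cd63 (chr10:128900989-128912822, plus strand), the gene of a tetraspanin of late endosomes and lysosomes, had the highest diet fold change of the 40 members. Its chow control libraries had 2.21, 2.12, 2.27, 2.38 and 1.71 CPM, its HFHF control libraries 22 to 60.5 (median 38.3) and its gRNA libraries 32 to 104 (median 55.1). All 15 libraries on the HFHF diet were above all 5 chow libraries, with a diet rise of 4.30 (SE 0.36, edgeR adjusted p = 2.19e-08), or 19.7-fold. HFHF control and the gRNA group overlapped over most of their range, and the difference of 0.54 (SE 0.23, edgeR adjusted p = 0.0775) passed without HFHF control replicate 1 (adjusted p = 0.0437) or gRNA replicate 1 (adjusted p = 0.0332). GENCODE lists a processed pseudogene of Cd63, and how reads that match more than one place were handled was not given in the sources used here.

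**Figure D3:**
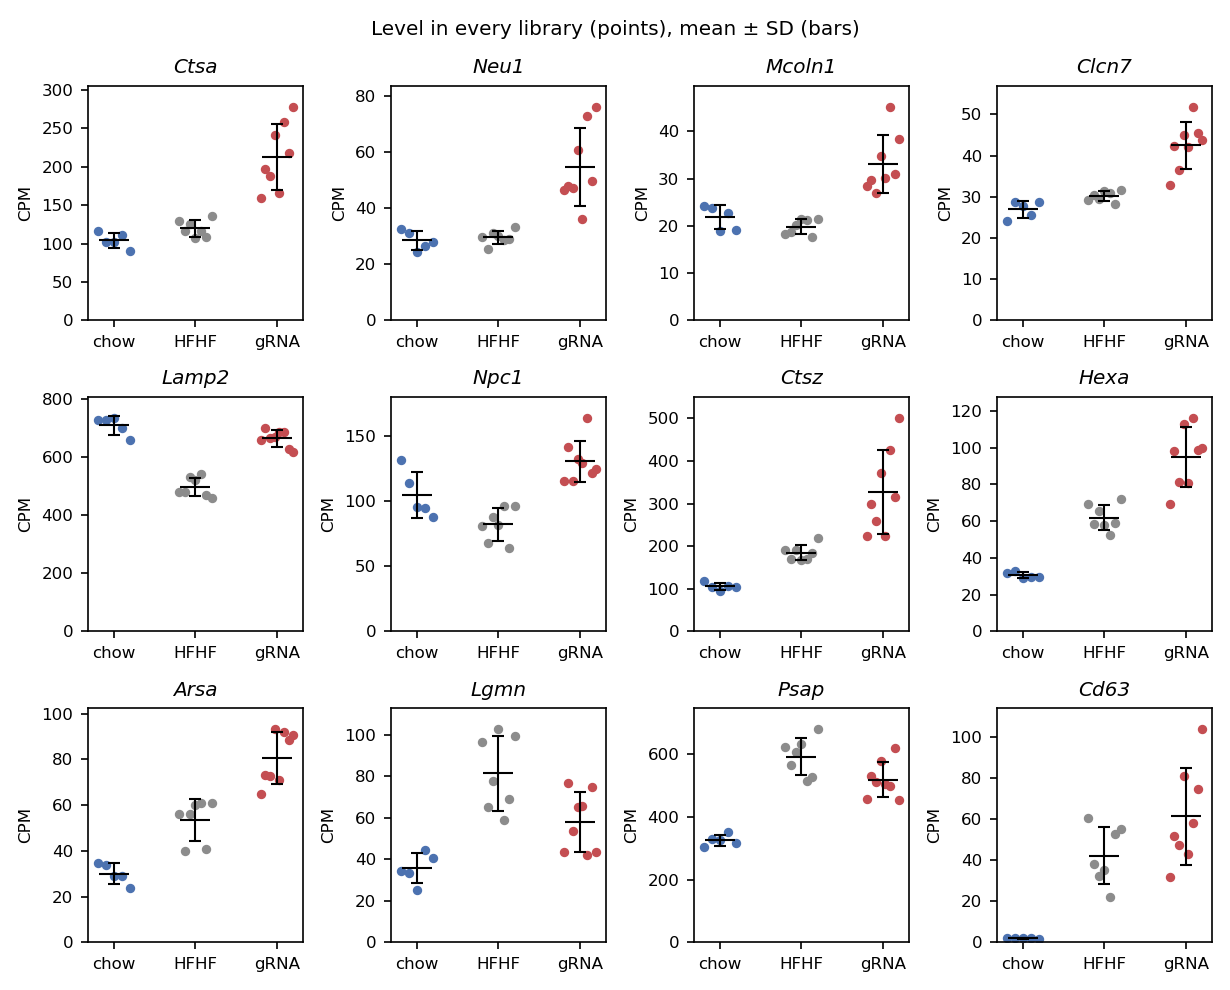
Level in CPM (y axis, from 0) of 12 members in every library (points) of chow control, HFHF control and the gRNA group (x axis), with bars for mean ± SD. The top row and Lamp2, Npc1, Ctsz and Arsa have every gRNA point above every HFHF control point, Lgmn and Psap have gRNA means below HFHF control, and Cd63 is near 2 CPM in all chow libraries.

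Some members work as partners, and the log2 ratio of 2 genes within a library does not depend on how libraries are scaled. These ratios are of CPM and not per length, so only their change between groups is read, and they were picked after the values of the genes were known and are given with no test. Ctsa to Neu1 had a ratio of 1.87 ± 0.18 in chow control (SD, n = 5), 2.02 ± 0.12 in HFHF control (n = 7) and 1.98 ± 0.15 in the gRNA group (n = 8), with overlap throughout. Ctsa to Glb1, the third enzyme of that complex, had 3.34 ± 0.12, 3.31 ± 0.18 and 4.20 ± 0.31, and the lowest gRNA library (3.88) was above the highest HFHF control library (3.54). Clcn7 to Ostm1 stayed at 0.95 ± 0.26, 0.92 ± 0.12 and 0.96 ± 0.18. Npc1 to Npc2, the partners that hand over cholesterol, had 1.27 ± 0.19, 0.50 ± 0.25 and 1.23 ± 0.16, lower in HFHF control than in either other group. Lamp1 to Lamp2 had -0.34 ± 0.04, 0.53 ± 0.11 and 0.36 ± 0.16, and all libraries on the HFHF diet (0.11 or more) were above all chow libraries (-0.27 or less).

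Against chow control, the gRNA group was highest in Cd63 (4.84, SE 0.36, edgeR adjusted p = 1.28e-08), followed by Ctsz and Hexa, both at 1.63 or 3.09-fold (adjusted p = 1.77e-07 and 2.11e-10), and Arsa at 1.43 (adjusted p = 2.6e-08). Ctsa was 1.03 higher, Neu1 and Cln3 were each 0.94 higher and Ctsd was 0.93 higher. For these 4 genes all gRNA libraries were above all chow libraries, as in 9.01% of all tested genes. All 7 lipid-class genes were called higher, between 0.22 (Smpd1) and 0.72 (Ppt1), against 20.9% of all tested genes higher and 21.7% lower. Scarb2 fell by 0.19 (SE 0.06, edgeR adjusted p = 0.0147) and Ids by 0.19 (SE 0.07, adjusted p = 0.0292), and these calls were lost in 7 and 14 of 20 alternatives. Npc1 rose by 0.32 (adjusted p = 0.025), lost without gRNA replicate 6 or any one of chow control replicates 3, 4 and 5 (adjusted p from 0.0511 to 0.0647).

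Per kilobase of merged exon, which allows levels of genes to be set side by side, the members spanned a wide range in HFHF control. Lamp1 was highest at 269 ± 13.5 CPM per kb (SD, n = 7), followed by Psap at 216 ± 21.8, Ctsd at 168 ± 14.4, Ctsz at 128 ± 12.4 and Ctsb at 113 ± 10.9. Ctsz and Ctsb did not differ beyond their spread. Idua was lowest at 1.01 ± 0.135, next to Sgsh at 1.44 ± 0.215, Cln3 at 1.65 ± 0.126 and Gla at 1.85 ± 0.41, and the last 3 overlapped within their spread. Merged exons include those of minor transcripts, so the level of a gene with many transcripts is understated.

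The coefficient of variation of a member had a median of 7.94% in chow control, 8.71% in HFHF control and 12.1% in the gRNA group, with Cd63 the most variable gene in both groups on the diet (33.3% and 38.4%). Single members went the other way: Gla had 22.2% in HFHF control and 5.05% in the gRNA group, and Lamp2 had 6.55% and 4.33%. Of the 22 members called higher with the gRNA, 10 had their highest gRNA value in replicate 6, 5 in replicate 8 (Ctsa, Ctsb, Ctsl, Ctsz and Neu1) and 4 in replicate 4, while 8 had their lowest in replicate 1. The summed level of all 40 members was 4250 to 4830 CPM in chow control, 5120 to 5900 in HFHF control and 5710 to 7450 in the gRNA group. That is a mean share of 0.46%, 0.551% and 0.675% of the scaled library, and HFHF control overlapped the gRNA group.

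Other cell types of the liver also hold lysosomes, and many markers of liver cell types differed between the groups. The background over all tested genes was 28.1% higher and 28.9% lower with the diet, and 19.6% and 19% with the gRNA. The summed level of 13 markers of monocyte-derived macrophages was 62.9 to 101 CPM in chow control, 294 to 697 in HFHF control and 191 to 399 in the gRNA group. All 13 rose with the diet, and with the gRNA 9 fell, none rose and 4 were not called. Gpnmb, 1 of the 4 not called, was at 0 in a chow library and 9.61 to 90.7 CPM in HFHF control. In the gRNA group it was at 35.5 to 142 CPM. Its log2 fold change with the gRNA was 0.65 (SE 0.36, edgeR adjusted p = 0.172), the highest fold change on this list. The 11 Kupffer cell markers summed to 132 to 256, 287 to 542 and 221 to 483 CPM in the same order. With the diet 6 of them rose and 2 fell, and with the gRNA 3 rose and 4 fell. The 12 hepatocyte markers summed to 91000 to 118000, 51800 to 76500 and 61500 to 95700 CPM, with 11 lower with the diet and 6 higher with the gRNA. Stellate cell markers, 10 in number, summed to 130 to 162, 311 to 429 and 177 to 232 CPM, with all 10 higher with the diet and 8 lower with the gRNA. The 8 sinusoidal endothelial markers summed to 179 to 220, 154 to 232 and 164 to 285 CPM. The part of these cell types in the members' changes was not tested.

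**Figure D4:**
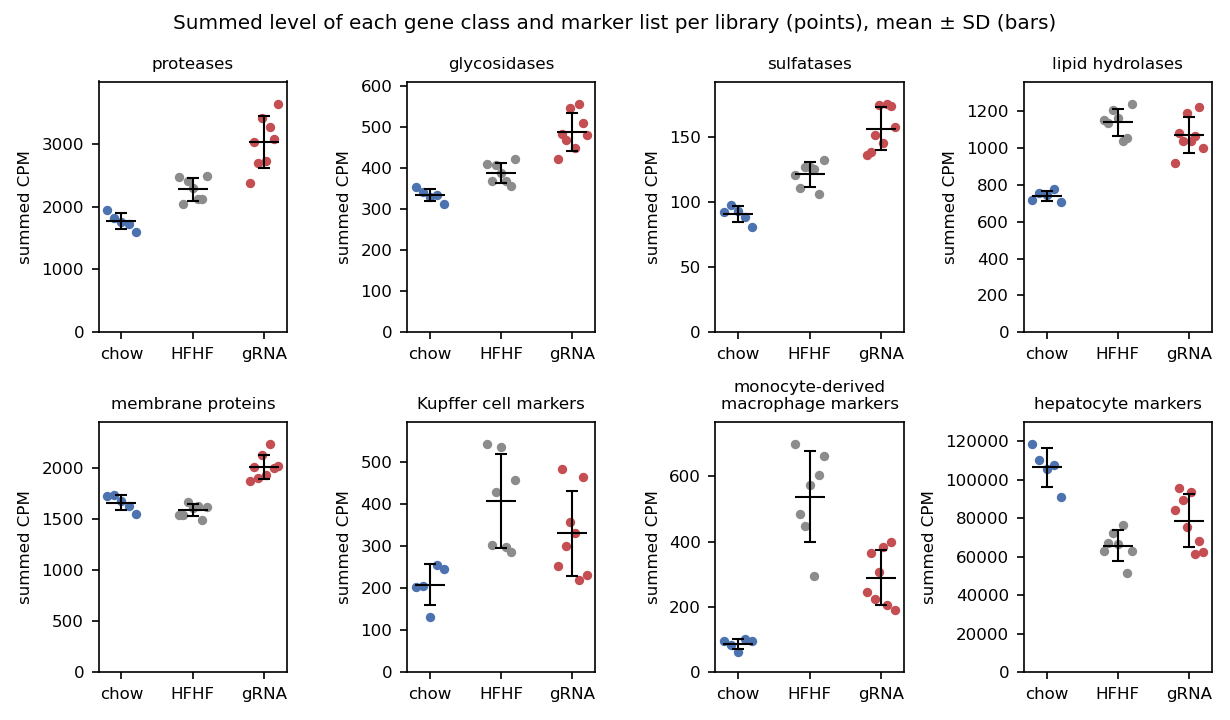
Summed CPM (y axis, from 0) of each class of members and of 3 marker lists in every library (points) of chow control, HFHF control and the gRNA group (x axis), with bars for mean ± SD. The protease and membrane protein sums are highest in the gRNA group (means 3020 and 2010), the lipid hydrolase sum is similar in both groups on the HFHF diet (1140 and 1070), and the monocyte-derived macrophage markers are highest in HFHF control (mean 538).

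Other lysosomal genes, outside the 40, were read from the same fit. There 19.6% of all tested genes rose with the gRNA and 19% fell. Of 28 further hydrolases and accessory enzymes 13 rose with the gRNA, 3 fell and 12 were not called (median 0.20). Siae, the gene of a sialic acid acetylesterase, went from 64.3 ± 5.60 to 103 ± 20 CPM (0.69, SE 0.09, edgeR adjusted p = 6.89e-06), and its gRNA libraries were all above HFHF control. The 3 that fell were Ctss, Ctsk and Epdr1, named here for their direction after their values were seen. Ctss, the gene of cathepsin S, a protease abundant in antigen-presenting cells, was at 15 to 33.6 CPM in chow control, 74.8 to 121 in HFHF control and 26.4 to 68.2 in the gRNA group (-1.15, SE 0.18, edgeR adjusted p = 7.86e-05).

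Of 25 further membrane proteins that passed the filter (Lamp3 did not), 9 rose with the gRNA, 1 fell (Tpcn2) and 15 were not called, with a median of 0.13. For this list and the next, the background was again 19.6% of all tested genes higher and 19% lower. Ctns, the cystine exporter, rose by 0.72 (SE 0.08, edgeR adjusted p = 9.93e-07), Mfsd1 by 0.69 (adjusted p = 9.48e-07), Tmem106b by 0.58 (adjusted p = 3.17e-05) and Tpcn1, a two-pore channel, by 0.43 (adjusted p = 4.9e-05). The macrophage marker Cd68 is also on this list. Of 15 genes that deliver hydrolases to lysosomes 9 rose with the gRNA, none fell and 6 were not called (median 0.27). Cln6, which helps newly made hydrolases leave the endoplasmic reticulum, had the highest fold change: its mean was 1.40 ± 0.414 CPM in chow control, 8.11 ± 2.47 in HFHF control and 31.9 ± 11.5 in the gRNA group (1.97, SE 0.22, edgeR adjusted p = 1.9e-06). Vps35 and Vps26a, subunits of the retromer that returns sorting receptors, rose by 0.35 and 0.30, and Ap1m1, of the AP-1 clathrin adaptor, by 0.33 (edgeR adjusted p = 0.000107, 3.82e-05 and 0.000229).

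None of the 4 MiT/TFE mRNAs was called higher with the gRNA. Tfe3 was at 18.7 to 23 CPM in chow control, 19.8 to 24.0 in HFHF control and 13.5 to 21.2 in the gRNA group, a fall of 0.35 with the gRNA (SE 0.09, edgeR adjusted p = 0.00351). Tfec fell by 0.51 (SE 0.19, edgeR adjusted p = 0.043), and Mitf (-0.28, adjusted p = 0.0796) and Tfeb (-0.02, adjusted p = 0.91) were not called. The activity of these proteins was not measured.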

How the data were processed

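The authors deposited 1 table of estimated counts per gene, of which 77.8% (values of at least 1) were whole numbers. The submitters' processing notes name the build GRCm38. Aligner, counter and annotation, and whether strand and molecular identifiers were used, were not given in the sources used here. Per the labels' protocols, poly(A) libraries were sequenced single-end. Of 32422 features, 22 construct features (7.0 counts in all) were left out, and 1 column matching no label was not used. Estimated counts were rounded, filtered (filterByExpr, minimum count 10; 13667 genes), TMM-scaled and fitted in 1 model of 3 groups (edgeR 4.0.16, R 4.3.3, robust quasi-likelihood, 17 residual degrees of freedom), with Benjamini-Hochberg adjustment over all genes and a threshold of 0.05. The procedure was tested on simulated data. Log2 fold changes come from this fit, with SE as the absolute log2 fold change over the square root of F.

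The members and lists were chosen with earlier results of these data known. Values by library (range and median in groups over 5) are given for the 3 members per class with the smallest p with the gRNA (2 for sulfatases), the 2 with the smallest diet p, those lower with the gRNA and those called the same way in both comparisons; other lists name up to 4 genes of smallest p. Some genes that this rule names are left out here. Alternatives were other scaling factors, DESeq2 1.42.0, other filters, fits of 2 groups and leaving out each library.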

Additional observations from a re-analysis of the deposited data

Results flagged for a closer look

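In 120 sets of values (40 genes in 3 groups), 3 had a library that stood apart from the others of its group by Dixon's test at the 95% level, where chance alone gives about 6. Scarb2 was at 218 CPM in gRNA replicate 5, with the other gRNA libraries at 179 to 192. Naglu was at 20.7 CPM in gRNA replicate 6, with the others at 14.8 to 17.5. Ids was at 20.3 CPM in chow control replicate 3, with the others at 17.1 to 17.8.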

How the results depend on the processing

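With no scaling factors, the members called higher and lower numbered 14 and 8 with the gRNA and 30 and 1 with the diet. Over all 13667 genes tested, these calls were 1028 higher and 5149 lower with the gRNA, and 6595 and 1604 with the diet. In gRNA against chow control 0 members were lower with no factors, against 1872 of all genes tested. The summed level moved to 4190 CPM in chow control and 6090 in HFHF control. Members lower with the gRNA numbered 1 with no low-count filter and 1 when only the 2 groups were fitted; in gRNA against chow control they numbered 0 and 1, and 1 with upper-quartile factors. DESeq2 called 22 and 2, 19 and 7, and 28 and 2 members higher and lower in the 3 comparisons. Over all genes it called 2669 and 2882 of 17488, 4292 and 3882 of 17930, and 3032 and 2950 of 16604. Leaving out 1 library at a time gave 21 to 23 higher and 0 to 3 lower with the gRNA, 18 to 22 and 6 to 7 with the diet, and 27 to 29 and 0 to 2 for gRNA against chow control. In the fit of all 20 libraries 19.6% of all tested genes were higher and 19% lower with the gRNA. These shares were 28.1% and 28.9% with the diet, and 20.9% and 21.7% for gRNA against chow control. With no factors the gRNA sign turned for Asah1 (-0.071), Ctsd (-0.042), Ctsh (-0.083), Fuca1 (-0.078), Ids (-0.107), Manba (-0.146), Pla2g15 (-0.166) and Scarb2 (-0.027), and the diet sign for Ctsh (0.004), Ids (0.009), Manba (0.129), Mcoln1 (0.140), Naglu (0.234) and Smpd1 (0.235). With upper-quartile factors it turned for Manba (-0.020) and Pla2g15 (-0.040) with the gRNA and for Naglu (0.049) and Smpd1 (0.053) with the diet. Leaving out 1 library gave ranges across 0 with the gRNA for Gla (-0.126 to 0.02), Lipa (-0.046 to 0.011) and Pla2g15 (-0.036 to 0.056), and with the diet for Ctsl (-0.044 to 0.114), Naglu (-0.065 to 0.055) and Smpd1 (-0.075 to 0.003). The cause was not tested. No paired analysis was possible because replicate numbers follow accession order and pair no libraries.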
